A study of Mus musculus with 4 samples.

Results

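The narrowest DHX9 peaks were the nuclear peaks of 80 bases or less in the deposited list of DHX9 crosslinking peaks. There were 946 of them among 59514 peaks outside the mitochondrial chromosome, or 1.59%. They were chosen by width alone, counted as last base minus first base plus 1, so their widths are given as a description with no test. They were compared with 30165 peaks from the middle of the width distribution (50.7% of the list, median width 196 bases, quartiles 169 and 227), which are called the comparison peaks below. The list came from FLASH, a form of CLIP-seq, in which ultraviolet light links RNA to protein, an antibody pulls the protein down, RNase I trims the RNA and the attached fragments are sequenced. The cells were WT26, a feeder-independent line of male mouse embryonic stem (ES) cells of strain C57BL/6x129sV, grown with leukemia inhibitory factor. The DHX9 group had 2 samples pulled down with a rabbit antibody, and the control group had 2 samples pulled down with rabbit IgG from the same line, replicates A and B in each. The labels name no genetic change or drug, all 4 samples came from 1 line, and the IgG material was mixed with the DHX9 material before RNA was isolated.

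DHX9 is a helicase of the DExH family that binds and unwinds double-stranded and other structured RNA in the nucleus. Transfer RNAs (tRNAs), small nuclear RNAs (snRNAs) and small nucleolar RNAs (snoRNAs) are short, folded and abundant, and most snoRNAs are cut out of introns of host genes. A tRNA is made by RNA polymerase III as a precursor with a leader before it and a trailer after it, both of which are removed, and transcription commonly ends in a run of T on the coding strand.

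Among the small RNA classes, tRNA genes showed the largest difference between narrow and comparison peaks, and 2 narrow peaks and 1 comparison peak could be read through the 3′ end of the gene, since they lay in the promoter windows of the RefSeq table of GRCm38.p6. They are shown 5′ to 3′ along the strand of the peak, with the bases under the peak in capitals. The first was a 66-base peak on the arginine tRNA gene n-TRtcg5, shown at chr7:79466404-79466523 on the plus strand, in the window of Polg. The second was a 69-base peak on the asparagine tRNA gene n-TNgtt7, shown at chr10:80249199-80249267 on the plus strand in the window of Ndufs7, which holds only the later stretch of the tRNA gene. The third was a comparison peak of 149 bases on the alanine tRNA gene n-TAagc16, shown at chr13:21222563-21222741 on the plus strand.
n-TRtcg5: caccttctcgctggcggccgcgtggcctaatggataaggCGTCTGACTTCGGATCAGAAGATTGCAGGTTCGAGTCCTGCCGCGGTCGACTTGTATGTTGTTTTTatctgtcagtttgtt
n-TNgtt7: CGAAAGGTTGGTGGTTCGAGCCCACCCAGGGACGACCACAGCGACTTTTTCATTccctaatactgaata
n-TAagc16: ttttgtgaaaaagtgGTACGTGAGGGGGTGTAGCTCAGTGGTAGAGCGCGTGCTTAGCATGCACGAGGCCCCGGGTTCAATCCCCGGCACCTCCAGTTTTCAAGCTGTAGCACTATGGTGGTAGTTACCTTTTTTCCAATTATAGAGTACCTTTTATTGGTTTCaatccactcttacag
The n-TRtcg5 peak began inside the gene, covered its last 49 bases and ran 17 bases past its 3′ end. The n-TNgtt7 peak covered the last 49 bases of its gene and ran 20 bases past the end. The n-TAagc16 peak, by contrast, began 8 bases before the gene, covered all 72 of its bases and ran 69 bases past the end. In all 3, the letters GTTCNANNC, the internal promoter box of tRNA genes, were found on the strand of the peak and not on the other strand. The same letters occurred on either strand in 9.32% of 32851 promoter windows of 300 bases. In n-TRtcg5 a run of 5 T ended 17 bases past the gene, at the last base of the peak. In n-TNgtt7 a run of 5 T ended 16 bases past the gene, inside the peak. In n-TAagc16 the first run, of 4 T, ended 5 bases past the gene and the peak went on beyond it. A run TTTT occurred on either strand in 78.0% of the promoter windows, so its presence alone is common. These letters are a description of the sequence under the peaks, and a match is not a measured site.

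Of the narrow peaks, 67 overlapped a gene of any of the 4 small RNA classes, tRNA, snoRNA, snRNA or microRNA. That was 7.08% of 946, with a 95% Wilson interval of 5.62 to 8.90%, against 149 of 30165 comparison peaks, 0.494% (0.421 to 0.580%). Genes for tRNAs held most of them, with 51 narrow peaks, or 5.39% (4.12 to 7.02%). Only 21 comparison peaks overlapped a tRNA gene, 0.0696% (0.0455 to 0.106%), a share 77.4 times lower. The narrow share moved with the width limit, to 8.59% (44 of 512 peaks) at 70 bases or less and 1.79% (55 of 3078) at 100 bases or less. A wider peak has more chances to touch a short gene, so the position of the midpoint was counted as well. By midpoint, 40 narrow peaks (4.23%) and 10 comparison peaks (0.0332%) lay in a tRNA gene. The intervals did not overlap under either rule. They cover counting error only, because the list is a single combined call without replicate values, and peaks in 1 gene are not independent. The plot of shares by class shows tRNA genes well apart from the other classes.

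**Figure D1:**
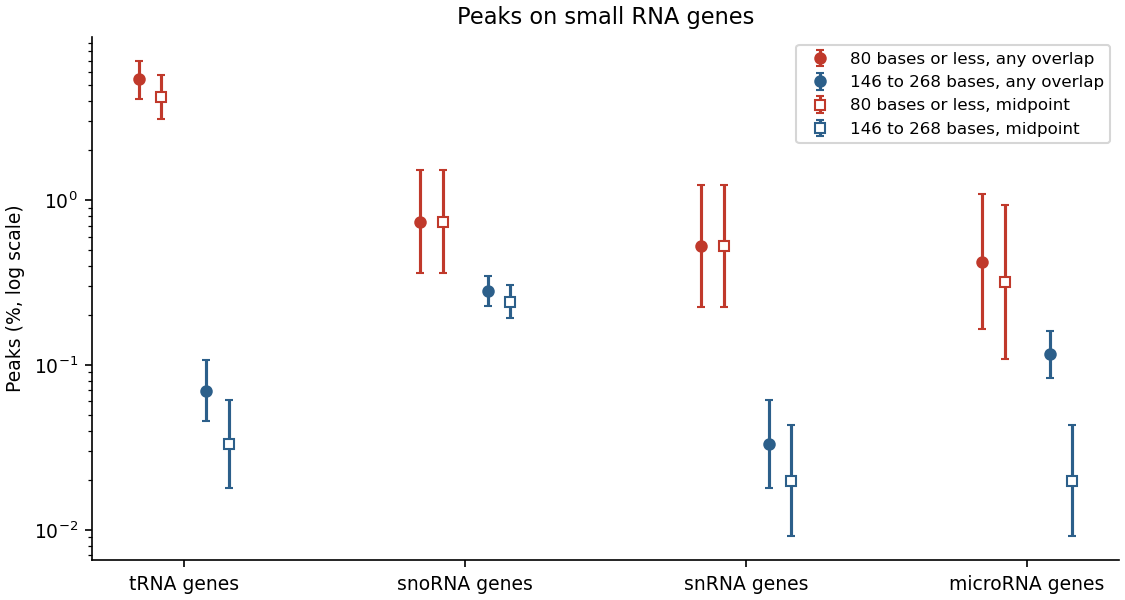
Share of peaks (%, log scale) on tRNA, snoRNA, snRNA and microRNA genes, for 946 peaks of 80 bases or less (red) and 30165 comparison peaks (blue), by any overlap (filled circles) or by midpoint (open squares), with 95% Wilson intervals. The tRNA share of narrow peaks was 5.39% by overlap and 4.23% by midpoint, and its intervals lie above those of the comparison peaks.

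All 51 narrow peaks on tRNA genes had the same layout. Read along the strand of the peak, each began inside the tRNA gene and ended past its 3′ end. None reached past the 5′ end. The width limit bears on part of this, because a peak of 80 bases has little room to span a gene of 71 to 95 bases, the lengths of these tRNA genes. It does not set which end is crossed. Of the 21 comparison peaks on tRNA genes, 20 spanned the whole gene and 1 crossed only the 3′ end. Of 45 peaks of other widths there, 36 spanned the gene and 9 crossed only the 3′ end. Thus all 117 peaks that overlapped a tRNA gene extended past its 3′ end along their own strand. The gene table gives no strand for tRNA genes, so the direction here is that of the peak.

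The narrow tRNA peaks differed in how much of the gene they held. The bases inside the gene ranged from 1 to 63, with a median of 21 and quartiles of 17.5 and 43. In 25 peaks, 16 to 21 bases lay inside, and 11 of these had exactly 17. In another 25 peaks, 26 to 63 bases lay inside. The last peak, on the alanine gene n-TAagc17, had 1 base inside and 66 past the end. Past the 3′ end the peaks ran a median of 17 bases (quartiles 14 and 22.5, range 3 to 66), and 37 of 51 ended 10 to 25 bases past it. The comparison peaks ran a median of 87 bases past the 3′ end and began a median of 8 bases before the gene. Peaks of other widths also began a median of 8 bases before it and ran a median of 36 bases past it. No narrow peak lay within 100 bases of a tRNA gene without touching it, on either side. The division at 21 and 26 bases was made after the values were seen.

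**Figure D2:**
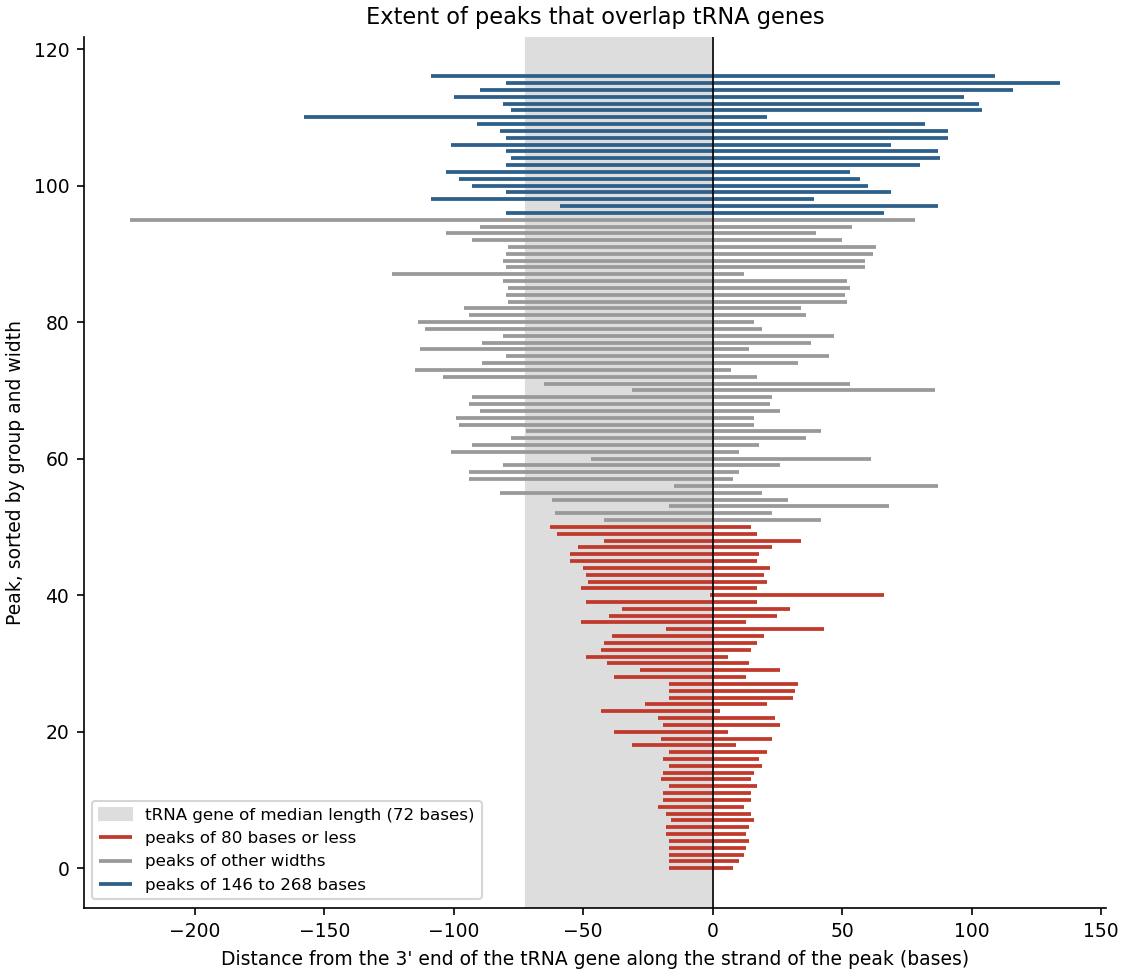
Extent of all 117 peaks that overlap a tRNA gene, as distance in bases from the gene's 3′ end along the strand of the peak, sorted by width within peaks of 80 bases or less (red), of other widths (grey) and comparison peaks (blue); the grey band is a gene of 72 bases. All 51 red lines begin inside the gene and end 3 to 66 bases past it, whereas 20 of 21 blue lines also begin before it.

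The narrow peak that covered most of its gene was on the glutamate gene n-TEctc9, at chr10:30811149-30811226 on the plus strand. It held 63 of the 72 bases of the gene, 87.5%, and 15 bases past it. On the arginine genes n-TRacg1 (chromosome 13) and n-TRacg2 (chromosome 9) the peaks were 77 and 72 bases wide, held 60 and 55 of 73 bases, and both ended 17 bases past the gene. The valine gene n-TVtac1 on chromosome 19 had 52 of 73 bases covered and 23 past it. The asparagine genes n-TNgtt8, n-TNgtt14 and n-TNgtt7 had 51, 50 and 49 of 74 bases covered and ended 17, 22 and 20 bases past the gene. The other asparagine gene with a narrow peak and the same anticodon, n-TNgtt2 on chromosome 15, had only 17 of 74 bases covered and 21 past it. Copies with 1 anticodon thus differed in the stretch covered. The methionine gene n-TMcat12 on chromosome 13 had 49 of 73 bases covered with only 6 past it. The phenylalanine gene n-TFgaa4, also on chromosome 13, had 48 covered and 21 past it.

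The 51 peaks lay on 51 different genes of the 430 tRNA genes in the table, and 117 genes had a peak of any width. By amino acid, 16 of 20 had a gene with a narrow peak, over 29 anticodons. Methionine, arginine and serine had the most, with 6 genes each of 16, 24 and 22. Alanine, asparagine and threonine followed with 4 genes each. Aspartate, lysine and proline genes had 3, 1 and 2 genes with a peak and none with a narrow peak. Tryptophan genes had no peak of any width on 8 genes. Cysteine, with 56 genes the largest group, had 6 genes with a peak and 1 with a narrow peak. Chromosome 13 held 14 of the 51 peaks and chromosome 11 held 10. Of the 51, 36 lay outside any other gene and 15 inside one. Where the strand of such a host gene was known, 3 of 9 pairs shared the strand. Copies of a tRNA gene can be nearly identical, and how reads that match several copies were placed is not given in the sources used here, so the copy that carries a peak is uncertain. Abundance of a tRNA and binding of DHX9 to it cannot be told apart in a peak list without read counts, nor can fewer cells and less RNA per cell in a bulk culture.

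Narrow peaks on snoRNA genes were few. There were 7, or 0.740% (0.359 to 1.52%), against 85 comparison peaks, 0.282% (0.228 to 0.348%). The ratio was 2.63 by overlap and 3.06 by midpoint, and the lower end of the narrow interval lies just above the upper end of the other. The gene table gives no strand for the small RNA genes of this paragraph either, so their ends are those along the strand of the peak. Read this way, 6 of the 7 covered the later stretch of the gene and ended past its 3′ end. Of these 6 genes, 5 are 120 to 184 bases long, which a peak of 80 bases or less cannot span. None of the 7 crossed the 5′ end alone, as 5 of the 85 comparison peaks did. The tightest was the peak on Snord19, a box C/D snoRNA gene within Gnl3, which covered 40 of 54 bases and ran 14 past the end. Box H/ACA snoRNA genes, which guide pseudouridine formation, gave 4 of the others. Snora3 in the ribosomal protein gene Rpl27a had 57 of 120 bases covered and 23 past the end. Snora24 in the noncoding host Snhg8 had 58 of 130 covered and 7 past it. Snora57 had 59 of 150 covered and 11 past it. Snora23, in the nuclear import receptor gene Ipo7, had 46 of 184 covered and 3 past it. Gm26132 in St3gal2 had 26 of 148 covered and 8 past it. The exception was Gm23301 in Rpl17, where a 79-base peak spanned the 65-base gene, with 11 bases before it and 3 after. Host and peak shared the strand in 5 of 6 host pairs whose strand was known. A further guide RNA gene outside these classes, Scarna2, whose RNA works in the Cajal body, was spanned by a 75-base peak that began 10 bases before its 61 bases and ended 4 bases after.

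On snRNA genes there were 5 narrow peaks, 0.529% (0.226 to 1.23%), against 10 comparison peaks, 0.0332% (0.0180 to 0.0610%). No strand is given for snRNA genes, so their start and 3′ end are again read along the strand of the peak. Rnu5g, a gene for U5, a core RNA of the spliceosome, and Gm25313 lie in the noncoding gene Gm40527 on chromosome 9. Their peaks were 53 and 50 bases wide, both covered the last 46 of 116 bases, and they ended 7 and 4 bases past the gene. LOC115487699 on chromosome 1, also 116 bases long, had 74 bases covered and 3 past the end. Gm24265 and Gm24407, both 141 bases long and both on the plus strand of chromosome 5, carried peaks wholly inside, 53 and 38 bases wide, that stopped 23 and 38 bases short of the 3′ end. Both began 65 bases after the start of the gene. Whether reads can tell the paired genes apart was not tested.

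On microRNA genes there were 4 narrow peaks, 0.423% (0.165 to 1.08%), against 35 comparison peaks, 0.116% (0.0834 to 0.161%). By midpoint the counts were 3 and 6. All 4 lay on the strand of the hairpin. The hairpins of 3 are shown from RefSeq, 5′ to 3′ on the hairpin strand, with the bases under the peak in capitals, because the peaks took different stretches of them. The Mir6238 hairpin lies at chr7:53891761-53891889 on the minus strand, Mir5099 at chr12:36816205-36816278 on the plus strand and Mir22 at chr11:75463716-75463810 on the plus strand, all in GRCm38.p6.
Mir6238: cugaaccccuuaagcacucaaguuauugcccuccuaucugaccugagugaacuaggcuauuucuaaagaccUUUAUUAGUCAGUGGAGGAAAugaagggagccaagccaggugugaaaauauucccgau
Mir5099: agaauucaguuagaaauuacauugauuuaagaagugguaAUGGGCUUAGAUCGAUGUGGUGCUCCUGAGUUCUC
Mir22: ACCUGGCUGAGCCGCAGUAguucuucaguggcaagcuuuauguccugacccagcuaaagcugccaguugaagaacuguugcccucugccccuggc
The 21-base peak on Mir6238 lay wholly inside the hairpin and held 20 of the 22 bases of its mature microRNA. The 24-base peak on Mir6236 on chromosome 9 also lay inside its gene and held 16 of the 19 bases of its mature microRNA. It lay wholly within another peak on the same strand, 130 bases wide, which held 94 of the 123 bases of the gene. The matures of Mir6238 and Mir6236 are shown with the seed, bases 2 to 8, in capitals, and the seeds differ.
miR-6238: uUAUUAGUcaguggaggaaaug
miR-6236: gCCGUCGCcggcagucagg
The peak on Mir5099 was 65 bases wide, held the last 35 bases of the hairpin and ran 30 bases past it. The peak on Mir22 was 73 bases wide, began 54 bases before the hairpin and held its first 19 bases. It thus took 1 base of miR-22-5p and none of miR-22-3p, and it was the only peak of its host gene Mir22hg.

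The widths of the narrow peaks ran from 18 to 80 bases, with a median of 69 and quartiles of 57 and 76. They form the low tail of a distribution with a median of 196 bases. Within the tail a small cluster stood at 20 to 23 bases, with 40 peaks, against 7 at 18 to 19 and 21 at 24 to 30 bases. There were 68 peaks of 18 to 30 bases, 89 of 31 to 50 and 789 of 51 to 80, ranges that were chosen after the widths were seen. Just inside the limit, 116 peaks of 79 or 80 bases had 92.2% in a gene and 1.72% on a small RNA gene. Just outside it, 137 peaks of 81 or 82 bases had 90.5% in a gene and none on a small RNA gene. Over 81 to 90 bases 1.53% of 850 peaks were on a small RNA gene, so the share did not drop to none past the limit.

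**Figure D3:**
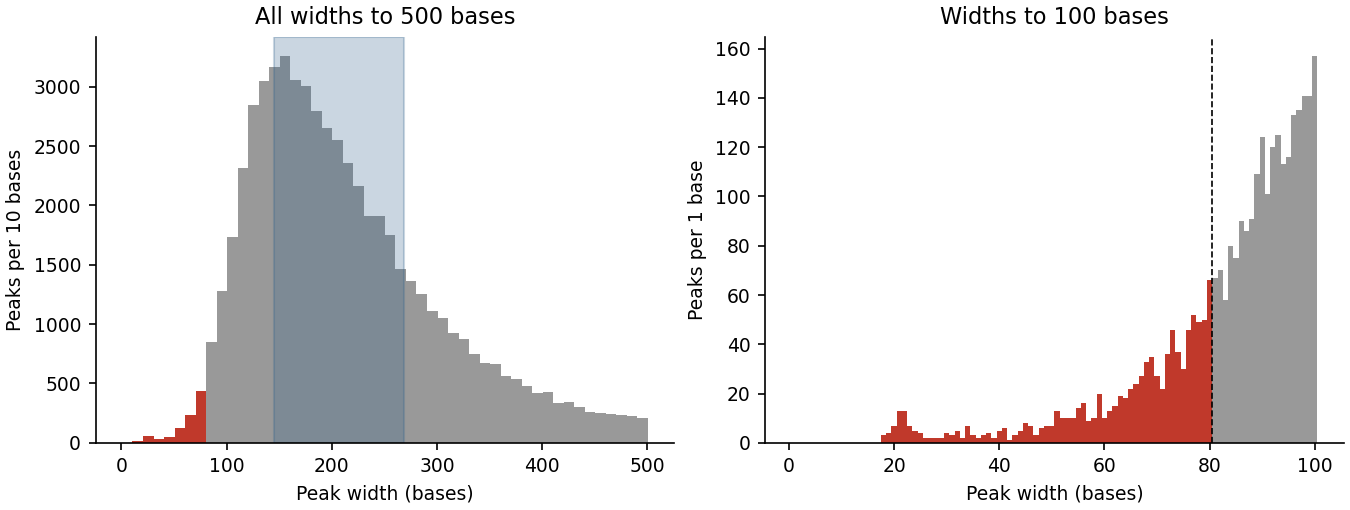
Number of nuclear peaks by width in bases, per 10 bases up to 500 bases (left) and per base up to 100 bases (right), with peaks of 80 bases or less in red and the range of the comparison peaks shaded. The narrow peaks are the low tail, with a small cluster of 40 peaks at 20 to 23 bases.

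Peaks on small RNA genes were unevenly spread over these widths. At 18 to 20 bases there was none among 14 peaks, a count that allows a share of up to 21.5%, the upper Wilson bound. At 31 to 40 bases 47.2% of 36 peaks (32.0 to 62.99%) overlapped a small RNA gene, and 41.7% overlapped a tRNA gene. At 71 to 80 bases 2.53% of 434 peaks did so. Seen from the genes, 51 of the 117 peaks on tRNA genes were narrow, 43.6% (35.0 to 52.6%), with a median width of 104 bases. For snRNA genes it was 5 of 31 (16.1%), for microRNA genes 4 of 81 (4.94%) and for snoRNA genes 7 of 184 (3.80%), beside 1.59% of all nuclear peaks.

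Narrow peaks lay in genes less often than comparison peaks. The midpoint was in a gene body for 803, 84.9% (82.5 to 87.0%), against 95.6% (95.4 to 95.9%). It was in a protein-coding gene for 712, 75.3% (72.4 to 77.9%), against 93.3%. It was in noncoding genes only for 91, 9.62% (7.90 to 11.7%), against 2.30%, and in a gene for a long noncoding RNA (lncRNA) for 73, 7.72% against 4.38%. Of the 143 narrow peaks between genes, 6 touched a tRNA gene. Without the peaks on small RNA genes, the shares of narrow peaks were 84.4% in any gene, 79.9% in protein-coding genes and 4.55% in noncoding genes only. For comparison peaks they were then 95.7%, 93.5% and 2.19%. Bodies of all genes covered 46.1% of the chromosome span between outermost features, and those of protein-coding genes 38.2%, which is about the share that placement without regard to genes would give. When only 1 peak per gene and width group was counted, which keeps all peaks between genes, the share in any gene was 6.59 percentage points higher for narrow peaks, and the share in protein-coding genes differed by -0.167 points.

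The share in genes was lowest for the shortest peaks. In a gene were 35 of 68 peaks of 18 to 30 bases, 51.5% (39.8 to 62.9%), an interval that holds the 46.1% of the span. In the range of 31 to 50 bases it was 64 of 89, 71.9% (61.8 to 80.2%), and at 51 to 80 bases 704 of 789, 89.2% (86.9 to 91.2%). The strand was read for peaks in exactly 1 protein-coding gene of known strand, without those on small RNA genes. At 18 to 30 bases 10 of 16 such peaks, 62.5% (38.6 to 81.5%), were on the strand of the gene. The counts were 21 of 29, 72.4% (54.3 to 85.3%), at 31 to 50 bases and 483 of 499, 96.8% (94.9 to 98.0%), at 51 to 80 bases. All narrow peaks together had 514 of 544 on the gene's strand, 94.5% (92.2 to 96.1%), below 99.1% of comparison peaks. In finer steps neither rose evenly. The gene share was 69.8% at 41 to 50 bases, below that at 31 to 40, and the strand share was lowest at 31 to 40 bases, with 5 of 10 peaks. Both were higher from 51 bases on, and the gene share went on from 92.6% at 81 to 90 bases to 96.1% at 269 to 400.

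**Figure D4:**
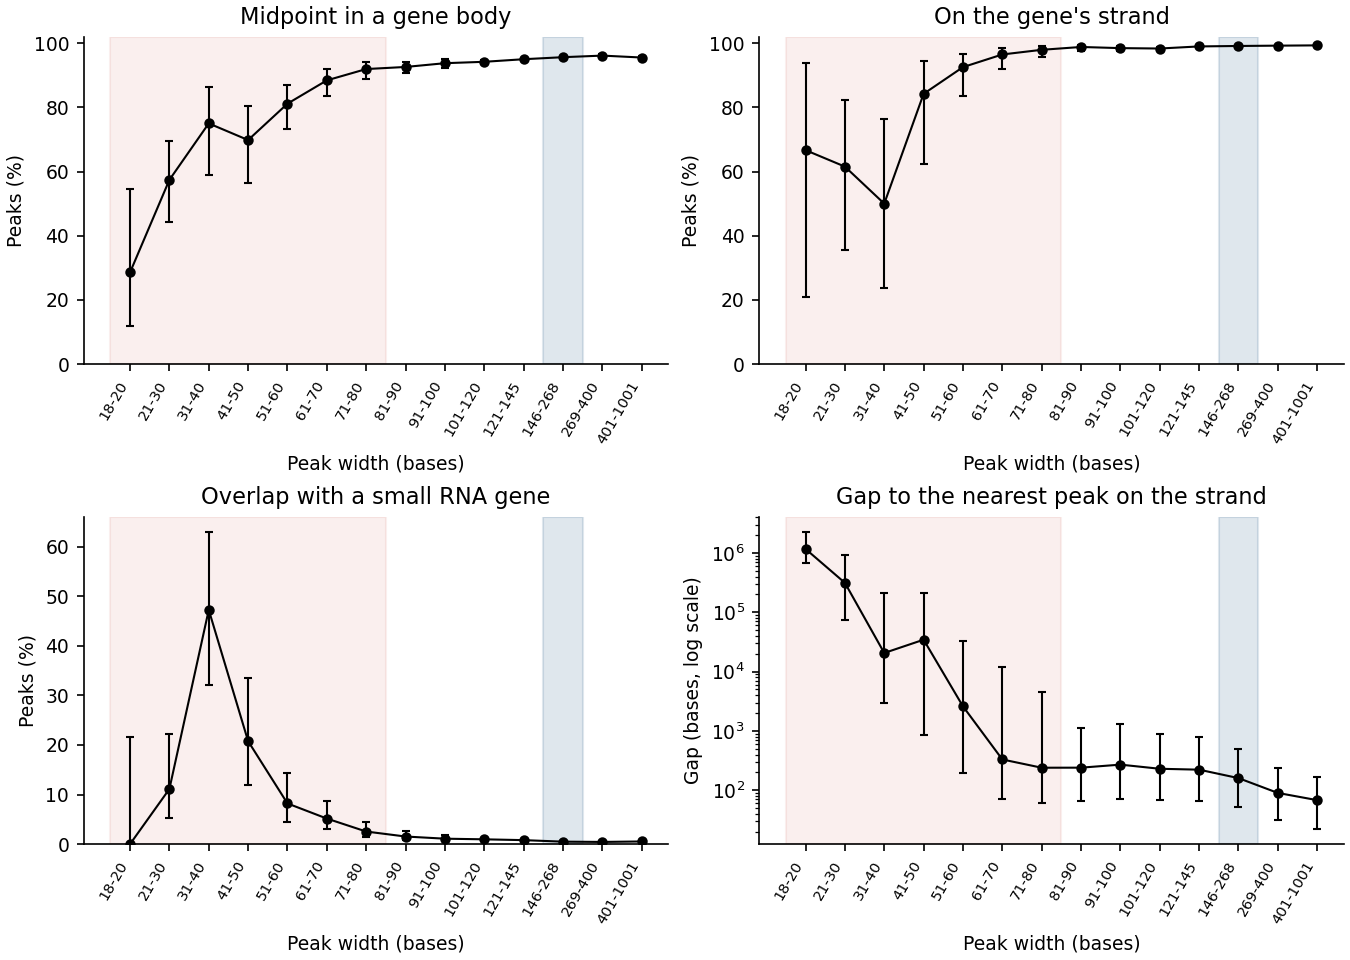
Share of peaks with the midpoint in a gene body, share on the strand of the protein-coding gene, share on a small RNA gene (each % with 95% Wilson intervals) and gap in bases to the nearest peak on the strand (log scale, median with quartiles), by peak width in bases. Red shading marks 80 bases or less and blue shading the comparison peaks. The gene share rose from 28.6% at 18 to 20 bases to 91.9% at 71 to 80 bases, and the small RNA share was highest at 31 to 40 bases.

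The narrowest peaks in genes were mostly alone. A 19-base peak in Ccdc38 at chr10:93547172-93547190, on the gene's strand, was the only peak of the gene, and the next peak on that strand was 1046 kb away. Cdh18, a cadherin of neurons, had a single 20-base peak at chr15:23454706-23454725, 2300.02 kb from the next. Fbxo40, an F-box protein of muscle, had a single 20-base peak at chr16:36981405-36981424, on the strand opposite to the gene. The lncRNA gene Gm36488 had a single 20-base peak at chr4:13568013-13568032. Utrn, the gene for utrophin, a protein related to dystrophin, was the exception, with 7 peaks, and its 21-base peak at chr10:12669888-12669908 was 64.6 kb from the next. Of the 35 peaks of 18 to 30 bases in genes, 25 (71.4%) were the sole peak of the gene. The first 5 peaks of exactly 80 bases by position, all on chromosome 1, lay in genes with more peaks, with 16 in Hspd1, a mitochondrial chaperonin, 60 in Mreg, 31 in Xrcc5, the Ku80 subunit of DNA repair, 33 in Gigyf2 and 16 in Rbbp5, a subunit of histone methyltransferase complexes. Of all peaks of 71 to 80 bases in genes, 11.3% were the sole peak of their gene. The peaks in Hspd1, Rbbp5 and Gigyf2 had a neighbour 13, 30 and 56 bases away.

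Narrow peaks stood farther apart from other peaks. The median gap to the nearest peak on the same strand was 657 bases (quartiles 89.25 and 34527), against 160 bases (52 and 497) for comparison peaks. A neighbour within 50 bases was found for 156, 16.5% (14.3 to 18.99%), against 24.5% (24.04 to 25.01%). A neighbour within 300 bases was found for 397, 42.0% (38.9 to 45.1%), against 65.0%, and on both sides for 170, 17.97% against 29.95%. By width, the median gap was 549 kb at 18 to 30 bases, 32.1 kb at 31 to 50 bases and 330 bases at 51 to 80 bases. Within genes, 162 of 803 narrow peaks, 20.2% (17.5 to 23.1%), were the sole peak of their gene, against 2.02% of comparison peaks. The median number of peaks in the host gene was 12 for narrow and 26 for comparison peaks. A minority thus lay in runs. The nearest peaks of the 397 with a neighbour within 300 bases had a median width of 192 bases, and 11 of them (2.77%) were narrow themselves, against 1.10% for comparison peaks. With 1 peak per gene and width group, neighbours within 50 bases were 1.28 percentage points more frequent for narrow peaks. The peak kept was the first along the chromosome, the outermost in a gene with many comparison peaks, so this value depends on the pick.

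Along genes, the share of narrow peaks fell from the start to the end, and so did that of comparison peaks. This was read in 1798 protein-coding genes that were 20 kb or longer and held 5 or more peaks, at least 90% of them on 1 strand, along that strand. The gene body was divided into 5 equal parts. From the first to the last, 454 narrow peaks in 363 genes had shares of 30.2, 22.2, 20.5, 15.4 and 11.7%. Comparison peaks had 29.1, 23.8, 18.6, 16.4 and 12.2%, and those in the genes that also hold a narrow peak had 28.8, 25.3, 18.1, 15.7 and 12.2%. The interval of the first part for narrow peaks was 26.1 to 34.6%, so a difference of a few percentage points in either direction was not detectable at this number of peaks. Only 1 peak per gene and width group, the first along the chromosome, was also counted. The share of narrow peaks in the first part minus that of comparison peaks was then -6.77 percentage points, against 1.11 with all. In a gene with many comparison peaks this pick is the outermost peak, while 669 of all 759 genes with a narrow peak held a single one. The value of -6.77 points thus depends on the pick. With the strand of the gene from the promoter table, in 1495 genes, the first part held 114 of 380 narrow peaks and 28.5% of comparison peaks.

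**Figure D5:**
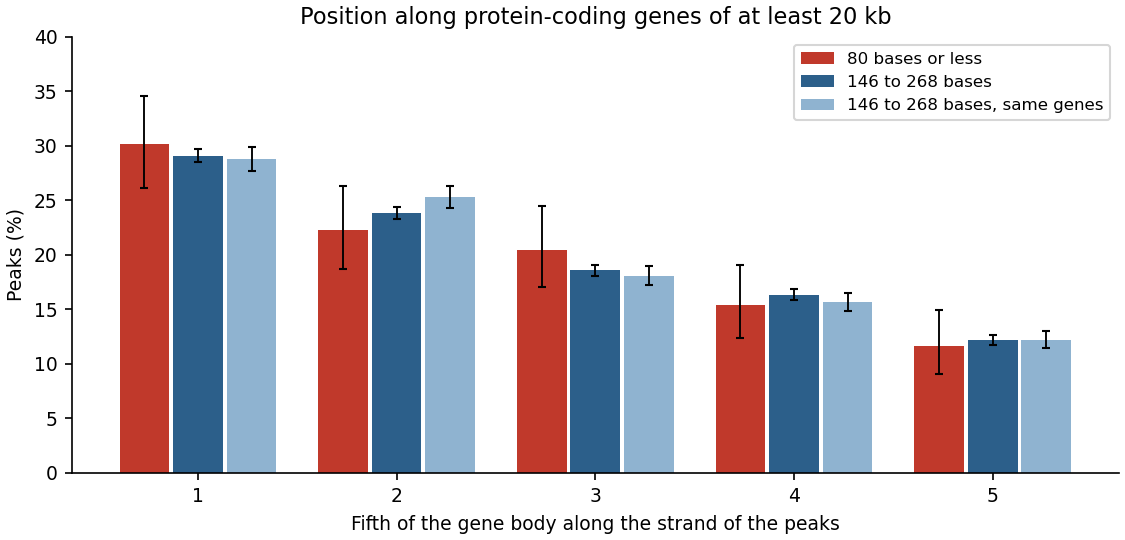
Share of peaks (%, with 95% Wilson intervals) in each of 5 equal parts of the body of long protein-coding genes (20 kb or more), along the strand of the peaks, for 454 peaks of 80 bases or less (red), all comparison peaks (dark blue) and comparison peaks in genes that hold a narrow peak (light blue). The share falls from 30.2% in the first part to 11.7% in the last for narrow peaks and from 29.1% to 12.2% for comparison peaks.

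Midpoints of narrow peaks fell in 759 genes, of 5962 genes with any peak. Of these genes 622 were protein-coding, 71 were lncRNA genes, and 669 held a single narrow peak. Cenpp, a centromere protein gene, held the most, with 4 of its 63 peaks. There were 15 genes with 3, among them Zfp444, a zinc finger gene (3 of 25 peaks), Gm42346 and Rrn3, an initiation factor of RNA polymerase I (3 of 29 each). Others were Crlf3 (3 of 32), Smg1, the kinase of nonsense-mediated decay (3 of 37), Ubap2 (3 of 65), Nufip2 (3 of 75), and the chromatin genes Kdm5b, a histone demethylase, and Suz12, a subunit of Polycomb complex PRC2 (3 of 84 each). Among genes with at least 10 peaks, Tenm3, an adhesion protein of neurons, had the highest share, 2 of 10. Of these 2, a 24-base peak lay on the strand opposite to Tenm3, 1327 kb from the next peak on its strand. It was also the only peak in the lncRNA gene 4930555F03Rik, which lies on the strand of the peak. The acetyltransferase gene Crebbp, the histone methyltransferase gene Ash1l and Arhgap32 had 2 of 11 each. Ss18, of the BAF chromatin remodeller, had 2 of 12, 1810013L24Rik and Kansl3 had 2 of 13, Sbf2 had 2 of 14 and Mettl5, an rRNA methyltransferase gene, had 2 of 16. In 197 genes every peak was narrow, but 195 of these had 1 peak only. The other genes were the lncRNA genes Gm39850 and Gm40527, with 2 of 2 each, the latter holding Rnu5g and Gm25313.

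Narrow peaks were also counted over all genes that hold a snoRNA or microRNA gene, wherever in the gene the peak lay. In the 372 protein-coding genes that hold a snoRNA gene, 35 of 2518 peaks were narrow, 1.39% (1.001 to 1.93%), beside 1.59% of all nuclear peaks. In the 675 protein-coding genes that hold a microRNA gene, 45 of 4019 were, 1.12% (0.838 to 1.49%), an interval wholly below 1.59%. In the noncoding hosts 2 peaks each were narrow, 1.37% and 2.04%. Shorter lists of well-known hosts cover only part of them, and leave out the snoRNA hosts Gnl3, Rpl27a, Ipo7 and Rpl17 and Gm39429, the host of Mir6236. Of 105 peaks in 18 listed noncoding snoRNA host genes 1 was narrow (in Snhg8), and of 505 in 35 listed protein-coding snoRNA host genes 3 were (in Wdr43, Rpl23 and Rps3). No peak of 222 in 19 listed genes for snoRNP and nucleolar proteins was narrow, which allows a share of up to 1.70% as the upper Wilson bound. Of 156 peaks in 23 listed microRNA host genes 1 was narrow (in Mir22hg). Of 21 peaks in 12 listed abundant structured RNA genes, such as Malat1, Neat1, Rn7sk and Rmrp, none was, which allows up to 15.5%. The 30 listed ribosomal protein genes had 3 of 128, in Rpl23, Rps3 and Rpl27a. Rpl17, which holds the narrow peak on Gm23301, is not on that list. The shares of these lists, from none to 2.34%, stand beside 1.59% of all nuclear peaks, and each of their intervals holds that share. Dhx9 itself had 45 peaks and none was narrow.

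The labelled cell type was set beside marker genes, with the limit that a peak shows RNA under the pulldown and not a level of expression. The lists were chosen with earlier results of these data known, so their counts are no independent check of the label. The ES cell list goes beyond the markers first planned, with Jarid2 (205 peaks), Tet1 (151) and Trim71 (101) among the additions. Of all protein-coding genes, 4982 of 21900 (22.7%) had a peak. Of 16 ES cell genes 14 had a peak, and 5 of their 764 peaks were narrow, 0.654% (0.280 to 1.52%), an interval just below the 1.59% of all nuclear peaks, with 3 in Jarid2, a partner of PRC2, 1 in Trim71 and 1 in Sall4, both ES cell regulators. Of 8 fibroblast genes 1 had a peak, Fn1, with 63 peaks and none narrow, a number with a peak that is near the share of all protein-coding genes. On the autosomes the narrow share ran from 1.02% on chromosome 5 to 2.58% on chromosome 18. Chromosome 13 had 2.57%, and 1.78% without the peaks on tRNA genes. Narrow peaks lay evenly on the strands, with 474 of 946 (50.1%) on the plus strand.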

How the data were processed

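The 4 samples share 1 peak list made by the authors, which gives the start, the end and the strand of each peak. These deposited positions are the only other values in the list, since its score field is empty, so neither height nor depth is known. Reads of PCR duplicates were merged by random bases in the adapters, per the labels' protocols. Peaks were called with PEAKachu, per the file's source column. How it was set and how it used the IgG samples is not stated in any source used here. Bowtie2 2.2.6 and the builds hg19 and mm10 are named in the submitters' processing notes, and mm10 was taken from the chromosome and scaffold names. Replicates have no values of their own, so no spread between samples can be given.

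Peaks of the mitochondrial chromosome were left out. Genes, biotypes and sequences came from RefSeq tables of GRCm38.p6, and gene strands from the promoter and microRNA tables. A peak was in a gene when its midpoint was, on either strand, and overlap meant at least 1 shared base. Shares have 95% Wilson intervals and no test was run. Named genes are the 10 with the most narrow peaks and the 10 with the highest narrow share among genes with at least 10 peaks. Others are up to 10 per small RNA class by covered length, 5 narrowest and 5 at the limit. Up to 4 per list of 8 lists, Dhx9 and 5 with only narrow peaks were also named. Besides these, n-TAagc16, n-TAagc17 and n-TNgtt2, and n-TNgtt7 as a sequence, were picked with their values in view. The members and lists were chosen with earlier results of these data known. The counting was tested on simulated peaks. Alternatives changed the width limit, the comparison group, the overlap rule and the weight of genes. Python 3.11.15, pandas 2.3.3, NumPy 2.4.6 and SciPy 1.17.1 were used.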

Additional observations from a re-analysis of the deposited data

How the results depend on the processing

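Values here are narrow minus comparison peaks. Of 81 recomputed values of 11 results, 61 stayed within the interval of the reported value or, for the count of genes, close to it (647 of 759 with midpoints in 1 gene only), 17 moved out and 3 left it with the other sign. The difference in the first of the 5 parts of genes, reported as 1.11 points with an interval that holds 0, also took the other sign inside that interval, with -2.05 without chromosomes 8 and 11 and -0.364 in genes of at least 50 kb. With the limit at 70 bases, the difference in the share on tRNA genes went from 5.32 to 8.52 percentage points, in any gene from -10.7 to -16.7, in protein-coding genes from -18.1 to -27.9, with a neighbour within 50 bases from -8.03 to -13.4, and the difference in median gap from 497 to 3199 bases. With the limit at 100 bases they were 1.72, -4.92 and -7.66 percentage points for the first 3 and 145.5 bases for the gap. Within genes that hold a small RNA gene, the differences were 12.2 points for tRNA, 3.78 for snoRNA (reported 0.458) and 2.32 for snRNA (reported 0.495). With 1 peak per gene and width group, which leaves 841 narrow and 5586 comparison peaks and takes the first along the chromosome, the differences were 6.59 points in any gene, -0.167 in protein-coding genes, -6.77 in the first of the 5 parts and 1.28 with a neighbour within 50 bases. By construction this setting thins only peaks in genes and keeps every peak between genes. It also takes the outermost peak of a gene with many comparison peaks, so the values for position and neighbours depend on that pick. A neighbour within 10 bases gave -4.22 points. Settings chosen after seeing the data left out peaks of 30 bases or less, which gave -8.16 points in any gene and -14.7 in protein-coding genes, or peaks on small RNA genes, which gave -13.6 in protein-coding genes. No paired analysis was possible because the list holds no values per sample, and for the same reason no replicate could be left out. The empty score field limits every share to counting error, with read depth unknown.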

Other observations

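On the mitochondrial chromosome, which was left out above, 7 of 49 peaks were 80 bases wide or less, 14.3%, against 1.59% of nuclear peaks. All 7 lay on the minus strand. How many of all 49 lay on that strand is not given here, so the strand is not shown to be particular to the narrow ones.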
